A study of Homo sapiens with 8 samples.

Results

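The transcripts of 10 integrin subunits, ITGA2, ITGA3, ITGA4, ITGA5, ITGA6, ITGAV, ITGB1, ITGB3, ITGB4 and ITGB6, were followed across 4 human tumour cell lines and the 2 populations sorted from each. Each subunit was read from the array's probe sets whose annotation named that gene alone, the brightest on average being taken, and each of the 10 had exactly 1 such probe set. They are 10 of 18417 genes named in this way, and all 10 were among the 16910 genes bright enough to test. The lines were COLO741 and HCT116, labelled colon carcinoma, SW620, labelled colon carcinoma lymph node metastasis, and HT29, labelled colon adenocarcinoma, all established lines grown in RPMI medium with serum and antibiotics. From each line 1 array (Affymetrix Human Gene 1.0 ST) was hybridised with RNA of cells labelled ABCB5-positive and 1 with RNA of cells labelled ABCB5-negative, the cells having been separated by flow cytometry after staining of ABCB5, a membrane transporter, which makes 4 arrays in each group. The sample labels name SW620 where the series' design text names SW480, and the sample labels are followed here.

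Integrins are cell surface receptors made of an alpha and a beta subunit, which bind proteins of the extracellular matrix or of other cells outside and, through talins and kindlins at the beta tail, the actin cytoskeleton inside. The pairing sets the ligand: ITGB1 joins many alpha subunits, among them ITGA2 (collagen), ITGA3 and ITGA6 (laminin), ITGA4 (VCAM1 and fibronectin) and ITGA5 (fibronectin). ITGAV joins ITGB1, ITGB3, ITGB5, ITGB6 or ITGB8 into receptors of proteins with the RGD tripeptide, and those with ITGB6 or ITGB8 are known for releasing active TGF-beta from its latent form. ITGA6 with ITGB4 forms the laminin receptor of hemidesmosomes, which anchor epithelial cells through keratin filaments. In the colon, epithelial cells are known for subunits of the laminin and collagen receptors, while ITGB6 is known to rise in injured or malignant epithelium.

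Values are log2 expression, and levels are compared between arrays for 1 gene at a time and never between genes. As a mark of background served 360 probe sets of olfactory receptor genes, whose values had a 95th percentile of 7.50, and a level below it is called dim here. Correlations over all probe sets were 0.993 to 0.996 between the 2 arrays of a line and 0.931 to 0.965 between arrays of different lines. In COLO741 the defining colon epithelial marker EPCAM was dim, at 5.36 on the ABCB5-positive and 6.43 on the ABCB5-negative array. In the other lines it measured 13.32 to 13.77. By limma against the mean of the other lines, 11 of 12 colon epithelial markers were lower in COLO741, where 26% of all genes were. All 9 measured melanocyte markers were higher (PMEL 14.39 and 14.49, against 7.14 to 7.89), where 23.7% of all genes were. Against single lines, 7 of the 12 epithelial markers were lower than in SW620, 11 than in HT29 and 7 than in HCT116. All 9 melanocyte markers were higher than in each of these lines. The epithelial cadherin CDH1 was dim in COLO741 too (6.95 and 7.35), so that the label of COLO741 as colon carcinoma goes against its markers. The ABCB5 transcript measured 8.14 on the ABCB5-positive and 9.42 on the ABCB5-negative array of COLO741, opposite to their labels, and was dim on the other 6 arrays. The arrays therefore carry their labels here as names of sorted fractions only. On the ABCB5-positive array of SW620 leukocyte markers were high, with a mean log2 level of 8.77 over 12 genes against 7.59 on the ABCB5-negative array, and CYBB of phagocytes at 9.28 against 6.06.

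Sequences upstream of the start site are shown for 3 subunits of unlike order over the lines, ITGB6 and ITGA2, both brightest in HT29, and ITGA5, dim in HT29. They are the 250 bases before the RefSeq start (GRCh38.p14), written 5′ to 3′ on the gene's strand, and capitals mark the GC box, GGGCGG on either strand, which binds factors of the SP family. They lie at chr2:160200273-160200522 on the minus strand for ITGB6, chr5:52989102-52989351 on the plus strand for ITGA2 and chr12:54419267-54419516 on the minus strand for ITGA5, each outside the annotated gene.
ITGB6: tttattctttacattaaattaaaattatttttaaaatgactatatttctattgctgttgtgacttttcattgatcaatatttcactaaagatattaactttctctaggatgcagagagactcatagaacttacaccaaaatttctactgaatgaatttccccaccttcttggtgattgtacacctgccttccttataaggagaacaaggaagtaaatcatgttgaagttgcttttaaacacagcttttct
ITGA2: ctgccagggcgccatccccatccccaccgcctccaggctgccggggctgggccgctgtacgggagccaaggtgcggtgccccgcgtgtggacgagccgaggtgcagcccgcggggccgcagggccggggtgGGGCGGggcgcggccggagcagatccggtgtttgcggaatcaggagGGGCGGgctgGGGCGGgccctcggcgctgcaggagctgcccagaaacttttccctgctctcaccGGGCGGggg
ITGA5: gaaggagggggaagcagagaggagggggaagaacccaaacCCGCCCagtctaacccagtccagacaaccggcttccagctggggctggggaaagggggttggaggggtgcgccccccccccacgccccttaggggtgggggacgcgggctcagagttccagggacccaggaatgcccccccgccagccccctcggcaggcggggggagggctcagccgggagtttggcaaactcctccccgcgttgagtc
The window of ITGB6 held 0 GC boxes and was 30.0% G and C, that of ITGA2 held 4 and was 76.4% G and C, and that of ITGA5 held 1 and was 70.0% G and C. Of 35116 windows of the same length 42.6% held at least 1 GC box, and the median share of G and C was 58.0%. The TATA motif, TATAAA on either strand, was in none of the 3 windows and in 10.7% of all, and the letters of both motifs do not overlap. Of the 3 windows shown, those of ITGB6 and ITGA2 differed most in base composition, and a match is a run of letters, not a shown binding site. Of the 10 subunits 7 had a RefSeq window, and ITGA3, ITGB3 and ITGB4 had none in the table used.

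Of the laminin receptors, ITGB4, the beta subunit of hemidesmosomes, separated COLO741 from the other lines most widely. ITGB4 measured 7.91, 11.94, 12.70 and 11.57 on the ABCB5-positive arrays of COLO741, SW620, HT29 and HCT116, and 8.03, 11.61, 12.71 and 11.45 on their ABCB5-negative arrays. Both COLO741 values lay just above the dim mark, and the levels of COLO741 and the other lines did not come near each other. From HT29 down, HT29 exceeded SW620 by 0.93 ± 0.12 (SE, limma adjusted p = 0.00145), SW620 exceeded HCT116 by 0.27 ± 0.12 (adjusted p = 0.135), and HCT116 exceeded COLO741 by 3.54 ± 0.12 (adjusted p = 4.01e-06, 11.6-fold).

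Its alpha partner ITGA6 was bright on all 8 arrays and varied little, with 13.19, 13.12, 13.34 and 12.69 on the ABCB5-positive arrays of COLO741, SW620, HT29 and HCT116, and 12.54, 13.18, 13.36 and 12.63 on their ABCB5-negative arrays. No pair of neighbours in its order of lines differed by the test, with adjusted p of 0.241 to 0.416, while HT29 exceeded HCT116, at the other end of the order, by 0.69 ± 0.18 (adjusted p = 0.0226). Without the ABCB5-positive COLO741 array SW620 exceeded COLO741 by 0.62 (adjusted p = 0.00603), and without the ABCB5-negative one, COLO741 exceeded HCT116 by 0.53 (adjusted p = 0.0106). ITGA3, the alpha subunit of another laminin receptor, measured 12.18, 8.71, 12.01 and 11.83 on the ABCB5-positive arrays of COLO741, SW620, HT29 and HCT116, and 10.93, 8.31, 11.76 and 11.79 on their ABCB5-negative arrays. SW620 stood apart as the low line, below COLO741 by 3.05 ± 0.27 (8.27-fold, adjusted p = 0.000182), while HT29, HCT116 and COLO741 did not pass against their neighbours (adjusted p of 0.872 and 0.478). Without the ABCB5-positive array of COLO741, HCT116 exceeded COLO741 by 0.77 (adjusted p = 0.00829).

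ITGA2, the alpha subunit of a collagen receptor of epithelia and platelets, measured 10.25, 10.22, 12.24 and 11.37 on the ABCB5-positive arrays of COLO741, SW620, HT29 and HCT116, and 9.84, 10.46, 11.91 and 11.37 on their ABCB5-negative arrays. HT29 was the high line, followed by HCT116, with SW620 and COLO741 below. HT29 exceeded HCT116 by 0.71 ± 0.17 (adjusted p = 0.0153), HCT116 exceeded SW620 by 1.03 ± 0.17 (2.05-fold, adjusted p = 0.00341), and SW620 and COLO741 differed by 0.29 ± 0.17 (adjusted p = 0.205). The first of these calls was lost without the ABCB5-positive array of HT29 (0.57, adjusted p = 0.117), the ABCB5-negative array of HCT116 (0.79, adjusted p = 0.0629) or its ABCB5-positive array (0.62, adjusted p = 0.116).

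Among the receptors of fibronectin and other RGD proteins the lines differed subunit by subunit. ITGA5, whose dimer with ITGB1 is the classical fibronectin receptor, measured 11.22, 9.24, 7.08 and 11.28 on the ABCB5-positive arrays of COLO741, SW620, HT29 and HCT116, and 10.77, 9.17, 7.11 and 11.29 on their ABCB5-negative arrays. HCT116 and COLO741 were high and differed by 0.29 ± 0.14 (adjusted p = 0.129), COLO741 exceeded SW620 by 1.79 ± 0.14 (3.46-fold, adjusted p = 9.11e-05), and SW620 exceeded HT29 by 2.11 ± 0.14 (adjusted p = 6.21e-05), where both HT29 values were dim and no fold is given. Without the ABCB5-positive array of COLO741, HCT116 exceeded COLO741 by 0.51 (adjusted p = 0.011).

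ITGB6, the beta subunit of the TGF-beta activating receptor of epithelia, had nearly the reverse order. ITGB6 measured 6.52, 7.91, 10.94 and 6.72 on the ABCB5-positive arrays of COLO741, SW620, HT29 and HCT116, and 6.28, 7.55, 10.39 and 6.32 on their ABCB5-negative arrays. Only HT29 was far above background, SW620 lay just above the dim mark, and all 4 arrays of COLO741 and HCT116 were dim. HT29 exceeded SW620 by 2.93 ± 0.10 (7.65-fold, adjusted p = 5.24e-06), SW620 exceeded HCT116 by 1.21 ± 0.10 (adjusted p = 0.000224), and HCT116 and COLO741 differed by 0.11 ± 0.10 (adjusted p = 0.402).

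ITGAV, the alpha subunit shared by the RGD receptors, was bright in every line, at 12.26, 10.37, 12.06 and 11.38 on the ABCB5-positive arrays of COLO741, SW620, HT29 and HCT116, and 11.98, 10.37, 11.95 and 11.37 on their ABCB5-negative arrays. COLO741 and HT29 differed by 0.12 ± 0.10 (adjusted p = 0.406), HT29 exceeded HCT116 by 0.63 ± 0.10 (adjusted p = 0.00344), and HCT116 exceeded SW620 by 1.01 ± 0.10 (2.01-fold, adjusted p = 0.000504). ITGB3, which pairs with ITGAV in the vitronectin receptor and with ITGA2B in platelets, measured 8.28, 6.28, 6.32 and 6.36 on the ABCB5-positive arrays of COLO741, SW620, HT29 and HCT116, and 7.69, 6.26, 6.41 and 6.24 on their ABCB5-negative arrays. It was above the dim mark on the 2 arrays of COLO741 alone, and COLO741 exceeded HT29, the next line, by 1.62 ± 0.16 (adjusted p = 0.000315), with the other 3 lines dim, so that no fold is given. The platelet partner ITGA2B lay between 7.16 and 7.54 on all 8 arrays, and the platelet gene PF4 between 6.47 and 6.69. Another platelet gene, PPBP, measured 7.83 on the ABCB5-positive array of SW620 and 5.99 to 6.31 on the other arrays.

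ITGB1, the common beta subunit, was bright and nearly level, at 12.69, 11.97, 12.59 and 12.42 on the ABCB5-positive arrays of COLO741, SW620, HT29 and HCT116, and 12.22, 12.03, 12.56 and 12.45 on their ABCB5-negative arrays. SW620 was the low line, below HT29 by 0.58 ± 0.14 (adjusted p = 0.0195) and below COLO741 by 0.45 ± 0.14 (adjusted p = 0.0407). Neighbours in the order of lines did not pass, SW620 lying 0.43 ± 0.14 below HCT116 (adjusted p = 0.0543). That difference passed with a trend on mean level, with the strict filter and without the sorted population in the model (adjusted p of 0.0297 to 0.0475), and without either COLO741 array (0.00765). HT29 exceeded COLO741 by 0.37 without the ABCB5-positive array of COLO741 (adjusted p = 0.0314). ITGA4, which pairs with ITGB1 or ITGB7 on leukocytes and some tumour cells, was dim on all 8 arrays, between 6.01 and 6.57, and its neighbouring lines had adjusted p of 0.281 to 0.969.

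**Figure D1:**
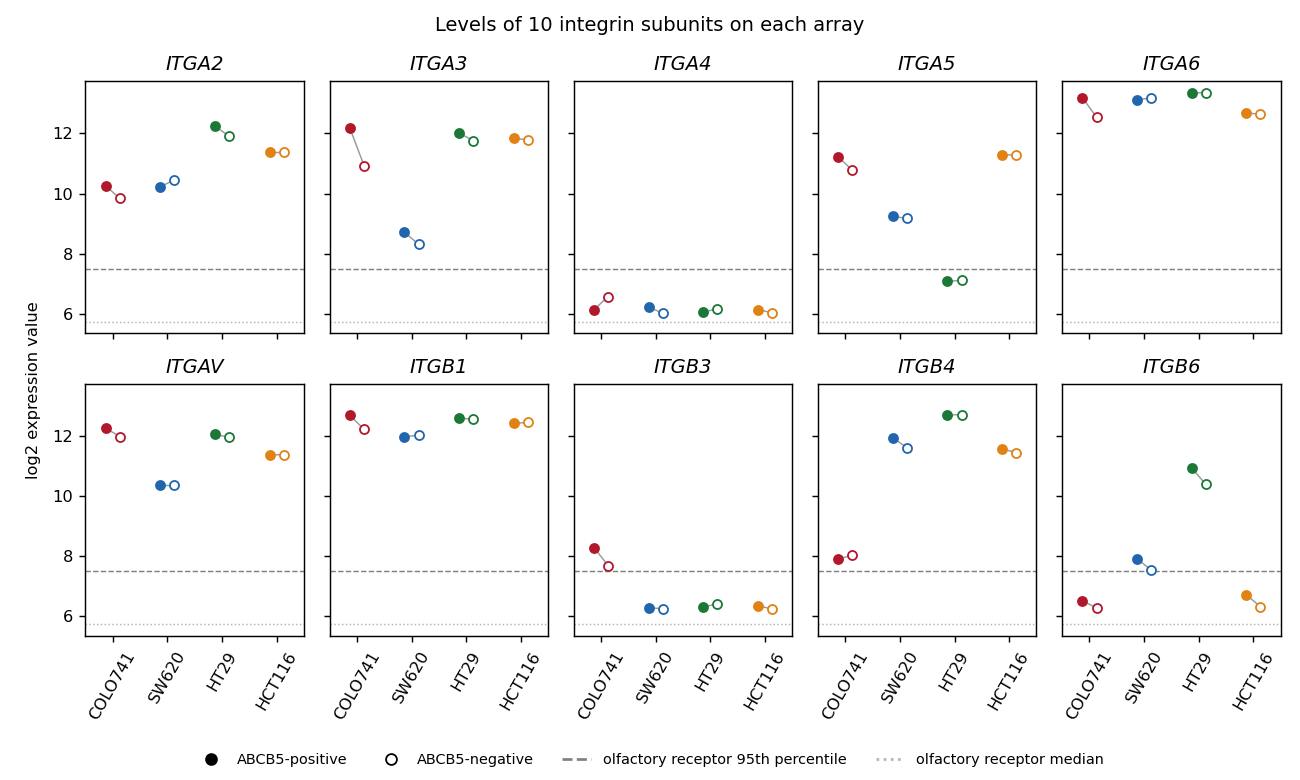
Log2 expression of the 10 integrin subunits (vertical axis) on each array of the 4 lines (horizontal axis), with filled points for ABCB5-positive and open points for ABCB5-negative arrays joined within a line, and the 95th percentile (dashed) and median (dotted) of olfactory receptor probe sets. ITGB4 is near 8 in COLO741 and above 11 elsewhere, ITGA5 is below the dashed line in HT29 alone, ITGB6 reaches 10.94 in HT29, and ITGA4 stays below the dashed line on all 8 arrays.

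The 4 line means of a subunit spanned a median of 1.89 log2 units over the 10 subunits, against 0.64 over the 16910 genes tested. For 7 of the 10 the span exceeded 1, which held for 31.5% of all genes tested. The widest spans were 4.74 for ITGB4, 4.26 for ITGB6, 4.19 for ITGA5 and 3.38 for ITGA3, and the narrowest 0.27 for the dim ITGA4, 0.58 for ITGB1 and 0.69 for ITGA6. ITGA2 spanned 2.03, ITGAV 1.75 and ITGB3 1.72.

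COLO741, the line whose markers differ from its label, was set against the mean of SW620, HT29 and HCT116. In COLO741, 4 of the 10 subunits were higher and 3 were lower by limma at an adjusted p under 0.05, and 3 did not pass. The comparison called 49.7% of all genes tested, 23.7% as higher and 26% as lower, so a call by itself says little here and the sizes carry the description. The median difference of the 10 subunits was 0.18, against -0.04 over all genes.

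The higher subunits were ITGA5, ITGB3 and ITGAV, of fibronectin or RGD receptors, and ITGA3, of a laminin receptor. Of these subunits ITGB3 alone exceeded each of the other lines by the test. Other subunits of fibronectin or RGD receptors were lower (ITGB6) or did not pass (ITGA4 and ITGB1). ITGA5 averaged 10.99 in COLO741 and 9.19 in the other lines, a difference of 1.80 ± 0.11 (SE, adjusted p = 3.23e-05). HCT116, at 11.28, was not below COLO741 in ITGA5, and ITGAV did not pass between COLO741 and HT29 (limma adjusted p = 0.406). ITGB3 averaged 7.98 in COLO741 and 6.31 in the other lines (1.67 ± 0.13, adjusted p = 0.000105), where the other lines were dim, and ITGAV averaged 12.12 in COLO741 and 11.25 in the other lines (0.87 ± 0.08, 1.83-fold, adjusted p = 0.000228). ITGA3 averaged 11.56 in COLO741 and 10.74 in the other lines (0.82 ± 0.22, adjusted p = 0.0199), with SW620 alone below COLO741 by line mean. Without the ABCB5-positive COLO741 array the difference was 0.31 (adjusted p = 0.101), and without the ABCB5-positive SW620 array it kept its size but no longer passed (0.80, adjusted p = 0.0517).

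The lower subunits were ITGB4, ITGB6 and ITGA2, of which ITGB4 alone was below each of the other lines by the test. ITGA2 did not pass between COLO741 and SW620 (limma adjusted p = 0.205). ITGB4 averaged 7.97 in COLO741 and 12.00 in the other lines, a difference of -4.03 ± 0.10 (16.3-fold lower, adjusted p = 7.75e-07). ITGB6 averaged 6.40 in COLO741 and 8.30 in the other lines (-1.90 ± 0.08, adjusted p = 7.13e-06), although HCT116 was as dim as COLO741, and ITGA2 averaged 10.05 in COLO741 and 11.26 in the other lines (-1.21 ± 0.14, 2.32-fold lower, adjusted p = 0.00045). ITGB1 (0.11 ± 0.12, adjusted p = 0.471), ITGA6 (-0.19 ± 0.15, adjusted p = 0.333) and ITGA4 (0.25 ± 0.13, adjusted p = 0.166) did not pass. Without the ABCB5-positive array of COLO741, ITGA6 (-0.52, adjusted p = 0.00721) and ITGA4 (0.50, adjusted p = 0.0226) passed, and without its ABCB5-negative array ITGB1 did (0.36, adjusted p = 0.0243). The fit removes a difference between the 2 sorted fractions that the lines share. The p-values therefore measure how unevenly the fractions differed from line to line. They do not measure spread between cultures, since nothing in the labels gives separate cultures of a line.

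**Figure D2:**
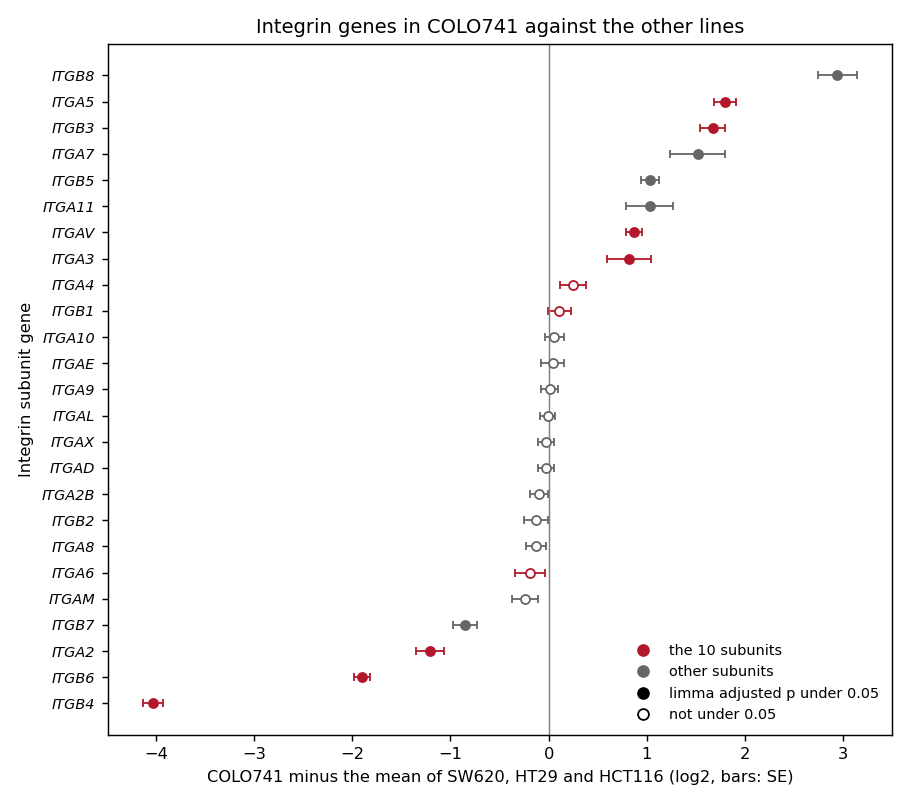
Differences in log2 expression between COLO741 and the mean of SW620, HT29 and HCT116 (horizontal axis, points with SE from limma) for the 10 integrin subunits (red) and 15 others (grey), filled where the adjusted p was under 0.05. ITGB8 lies farthest to the right at 2.94 and ITGB4 farthest to the left at -4.03.

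Between pairs of lines the subunits moved in both directions. Of the 10, 5 were higher and 2 lower in COLO741 than in SW620, a comparison that called 47% of all genes (23% higher and 24% lower). In COLO741 2 were higher and 3 lower than in HT29 (45.3% of all genes called, 23.1% higher and 22.2% lower), and 2 higher and 2 lower than in HCT116 (45.9%, with 22% higher and 23.9% lower). In SW620 1 was higher, ITGA5, and 6 were lower than in HT29 (40% of all genes called, 21.2% higher and 18.9% lower). In SW620 1 was higher, ITGB6, and 4 lower than in HCT116 (38.9% of all genes called, 19.1% higher and 19.8% lower). In HT29 5 were higher and 1 lower, ITGA5, than in HCT116 (39%, with 18.4% higher and 20.6% lower). SW620 was thus the line with the lower integrin transcripts against both HT29 and HCT116 by count. Without the ABCB5-positive array of COLO741, 9 subunits in place of 5 passed against HT29 and 7 in place of 4 against HCT116, while the genes called were 7157 in place of 7664 and 7173 in place of 7761 of 16910.

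The comparison of the sorted populations asked whether integrin transcripts go with the ABCB5 label, and 0 of the 10 subunits passed, as did 0% of all genes tested (0 of 16910, lowest adjusted p 0.898 by limma). Of the 10, 2 had an unadjusted p under 0.05, ITGB6 and ITGA3, which 744 of all genes also had. Of the 10 mean differences 9 were above 0, with a median of 0.12, against a median of 0.00 over all genes. Without COLO741 the means were 0.03 for ITGA2, 0.01 for ITGA5, -0.01 for ITGA6, -0.02 for ITGB1 and 0.02 for ITGB3.

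ITGB6 was the steadiest of them, with ABCB5-positive minus ABCB5-negative differences of 0.24 for COLO741, 0.35 for SW620, 0.55 for HT29 and 0.40 for HCT116, a mean of 0.39 ± 0.13 (SD, n = 4, limma unadjusted p = 0.00133, adjusted p = 0.898). Flipping the signs of the 4 line differences in every way (exact permutation test, two-sided) gave p = 0.125, the smallest that 4 lines allow. The values in COLO741 and HCT116 lie in the background, so the measured part of the difference is that of HT29 (10.94 against 10.39) and, close to the dim mark, of SW620 (7.91 against 7.55). ITGA3 differed by 1.25 for COLO741, 0.40 for SW620, 0.26 for HT29 and 0.04 for HCT116, a mean of 0.49 ± 0.53 (SD, n = 4, limma unadjusted p = 0.0402, adjusted p = 0.898), and of 0.23 ± 0.18 (SD, n = 3) without COLO741. ITGAV also had no line with a lower ABCB5-positive value, at a mean of 0.10 ± 0.13 (SD, n = 4). In unrounded values 3 of the 10 were higher in the ABCB5-positive array of all 4 lines, ITGAV in SW620 and HCT116 by less than the second decimal, which held for 6.39% of all genes tested.

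Line by line, the widest differences were those of COLO741. There 8 of the 10 subunits were higher in the ABCB5-positive array, by a median of 0.43 over the 10, where 45.6% of all genes were higher and the median of all genes was -0.02. Beside ITGA3 they were ITGA6 (0.66), ITGB3 (0.59), ITGB1 (0.47), ITGA5 (0.45), ITGA2 (0.41), ITGAV (0.28) and the dim ITGB6 (0.24), while ITGB4 measured -0.12 and the dim ITGA4 -0.43. The SD of the difference over all genes was 0.32 in COLO741, and ITGA3 was among the 1.63% of genes that differed by over 1 unit either way. The medians of the 10 subunits were 0.05 in SW620, 0.01 in HT29 and 0.05 in HCT116, with 7, 5 and 7 of the 10 higher. Each line has 1 array per population, so a difference within a line has no replicate, and in COLO741 the ABCB5 transcript runs against the labels.

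In SW620 the differences of ITGA3 (0.40), ITGB6 (0.35), ITGB4 (0.33) and ITGA4 (0.23) stood beside higher leukocyte markers on the same ABCB5-positive array, where 10 of 11 tested genes were higher by a median of 1.06. On that array 9 of the 12 leukocyte markers were above the dim mark, against 3 to 6 on the other arrays. PTPRC, carried by all leukocytes, was dim there too, at 6.96 against 4.82 to 5.11 elsewhere, and was not among the genes tested. SPI1 was lower, at 8.05 against 8.19 on the ABCB5-negative array. Epithelial genes were higher on that array as well, CDH1 at 11.46 against 9.98, TSPAN1 at 9.70 against 8.39 and LAMB3 at 9.62 against 8.69, though the median difference of 12 colon epithelial markers was 0.06. The part of either set in the integrin values was not tested, and in such sorted bulk RNA fewer cells of a type and less RNA per cell cannot be told apart. Without SW620 the mean difference of ITGB4 turned to -0.01.

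**Figure D3:**
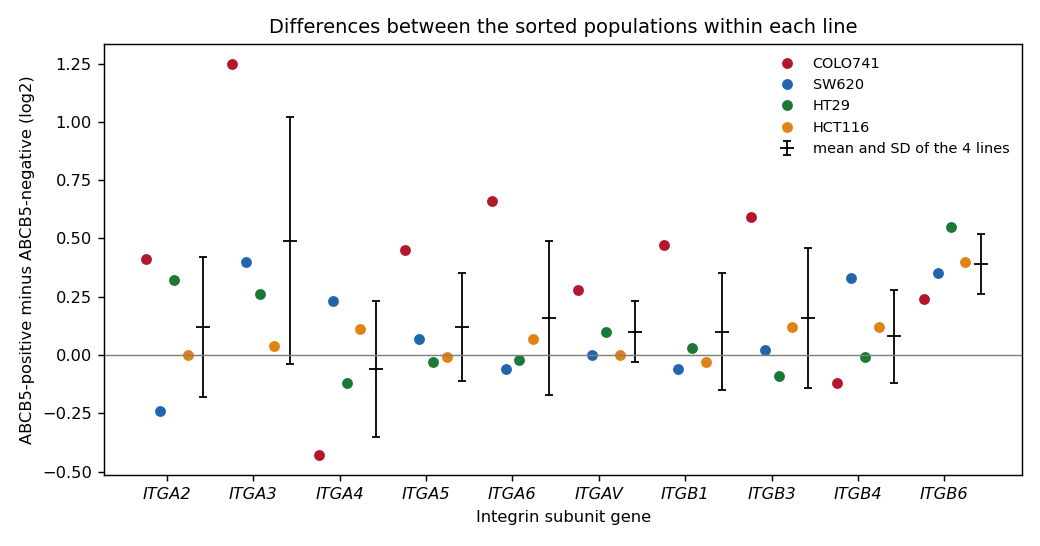
ABCB5-positive minus ABCB5-negative difference in log2 expression (vertical axis) of each integrin subunit (horizontal axis) in the 4 lines (coloured points), with the mean and SD of the 4 lines in black. COLO741 holds the highest point for 7 subunits, reaching 1.25 for ITGA3, and ITGB6 lies above 0 in all 4 lines.

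The family's other subunits give the partners of these 10. Of 16 listed, 15 had a probe set naming the gene alone (ITGA1 did not), and in COLO741 against the other lines 4 were higher, 1 lower and 10 did not pass, where 49.7% of all genes were called. ITGB8, which joins ITGAV and activates TGF-beta, measured 12.80, 8.72, 10.37 and 9.31 on the ABCB5-positive arrays of COLO741, SW620, HT29 and HCT116, and 12.14, 9.20, 10.25 and 9.29 on their ABCB5-negative arrays, a COLO741 difference of 2.94 ± 0.20 (SE, 7.70-fold, adjusted p = 4.55e-05). ITGB5, the vitronectin receptor subunit, averaged 13.14 in COLO741 and 12.12 in the other lines (1.03 ± 0.09, 2.04-fold, adjusted p = 0.000173). The laminin receptor subunit ITGA7 averaged 9.70 in COLO741 and 8.18 in the other lines (1.52 ± 0.28, adjusted p = 0.00425), and the collagen receptor subunit ITGA11 averaged 8.35 in COLO741 and 7.32 in the other lines (1.03 ± 0.24, adjusted p = 0.0129). Against SW620 alone ITGA7 did not pass, by line means of 9.70 and 8.87 (limma adjusted p = 0.0932).

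The last 2 differed widely between the COLO741 arrays, ITGA11 at 8.98 on the ABCB5-positive and 7.72 on the ABCB5-negative array and ITGA7 at 10.22 on the ABCB5-positive and 9.17 on the ABCB5-negative array. Without the ABCB5-positive array the COLO741 differences were 0.43 for ITGA11 and 0.86 for ITGA7, and without any 1 array both kept an adjusted p under 0.05 (highest 0.0367 and 0.015). ITGB7, the partner of ITGA4 and ITGAE on lymphocytes, averaged 7.84 in COLO741 and 8.69 in the other lines (-0.85 ± 0.12, 1.80-fold lower, adjusted p = 0.00135). It measured 9.40 on the ABCB5-positive and 8.92 on the ABCB5-negative array of SW620, and ITGB2, the leukocyte beta subunit, 8.24 on the ABCB5-positive and 7.78 on the ABCB5-negative array of SW620, against 7.71 to 7.82 on the other arrays. ITGB7 was as high in HT29 (9.18 and 9.20) and low in HCT116 (7.67 and 7.76). The part of the leukocyte markers in the SW620 values was not tested.

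**Figure D4:**
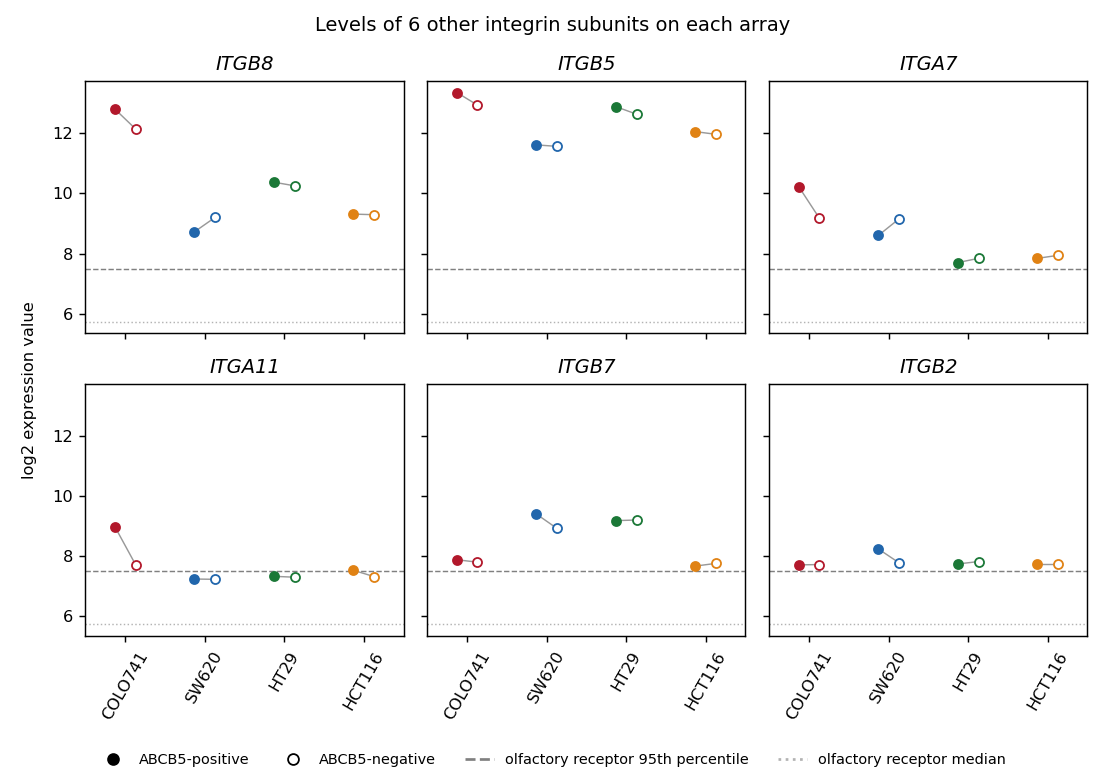
Log2 expression (vertical axis) of 6 further integrin subunits on each array of the 4 lines (horizontal axis), drawn as filled points for ABCB5-positive and open points for ABCB5-negative arrays, with the same background lines as for the 10 subunits. ITGB8 and ITGB5 are highest in COLO741, ITGA7 and ITGA11 differ between the 2 COLO741 arrays, and ITGB2 is highest on the ABCB5-positive array of SW620.

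Ligands were set against the same contrast of COLO741 with the other lines, which called 23.7% of all genes as higher and 26% as lower. Of 16 measured laminins and basement membrane genes 9 were higher and 4 lower in COLO741, with a median difference of 0.74 against -0.04 over all genes. The laminin alpha chains LAMA1 and LAMA4 averaged 11.38 and 10.56 in COLO741 and were dim elsewhere (differences of 4.62 ± 0.09 and 4.34 ± 0.10, SE), and the beta chain LAMB2 averaged 10.78 in COLO741 and 8.98 in the other lines (1.80 ± 0.15). The epithelial chains LAMB3 (-1.08 ± 0.17) and LAMA5 (-1.03 ± 0.07) and the linker NID1 (-1.35 ± 0.13) were lower in COLO741, NID1 being high in SW620 alone (10.88 and 11.24). All of these differences passed with limma, the highest adjusted p being 0.00208 for LAMB3.

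Of 21 RGD and other ligands 10 were higher and 4 lower in COLO741, with a median of 0.71. Osteopontin, SPP1, averaged 13.29 in COLO741 and 7.49 in the other lines (5.80 ± 0.33), fibronectin, FN1, 13.42 in COLO741 and 8.46 in the other lines (4.96 ± 0.38), and EDIL3, a ligand of ITGAV receptors, 10.33 in COLO741 and 5.45 in the other lines (4.88 ± 0.34). Nephronectin, NPNT, averaged 6.66 in COLO741 and 9.47 in the other lines (-2.81 ± 0.08), the adhesion molecule L1CAM differed by -1.27 ± 0.10 and the matrix protein TGFBI by -1.25 ± 0.27, the last call being lost without the ABCB5-negative COLO741 array (adjusted p = 0.0921). TGFBI was higher in COLO741 than in HCT116 (8.52 and 7.07, adjusted p = 0.0122), L1CAM averaged 6.99 in COLO741 and 7.06 in HT29 (adjusted p = 0.675), and NPNT was dim in SW620 too (6.41 and 6.74). Of the 8 collagens 1 was higher, COL5A2 (1.47 ± 0.09), and 7 did not pass.

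Of 25 measured genes that activate integrins or link their beta tails to actin, 11 were higher and 4 lower in COLO741, with a median of 0.11, in the contrast that called 49.7% of all genes. Of the kindlins, which activate integrins, FERMT3, known from blood cells, averaged 12.35 in COLO741 and 8.48 in the other lines (3.87 ± 0.09, SE, 14.6-fold), and FERMT1, the epithelial form, averaged 7.68 in COLO741 and 11.78 in the other lines (-4.10 ± 0.19), its ABCB5-positive COLO741 value being dim (7.34). The adaptor DAB2 (2.85 ± 0.11) and the talin TLN2 (2.36 ± 0.08) were higher in COLO741, and TNS4, a tensin of epithelial tumours, was lower and at the dim mark there (-4.48 ± 0.10). The adjusted p of these 5 genes was at most 9.69e-06. VCL, vinculin, differed by -0.40 ± 0.12 (adjusted p = 0.0295), a call lost without 5 of the 8 arrays in turn. The COLO741 values of VCL, 11.36 on the ABCB5-positive and 10.81 on the ABCB5-negative array, lay around those of HT29 (11.09 and 10.96).

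Of 15 measured signalling kinases and adaptors 4 were higher and 6 lower in COLO741, with a median of -0.02, where 23.7% of all genes were called higher and 26% lower. The adaptor NEDD9 averaged 12.18 in COLO741 and 8.35 in the other lines (3.82 ± 0.14, 14.1-fold), with FYN at 1.15 ± 0.11 and GIT2 at 0.70 ± 0.07. FYN was lower in COLO741 than in SW620, however, by line means of 11.38 and 12.38 (adjusted p = 0.001). PTK2, the focal adhesion kinase, averaged 11.47 in COLO741 and 12.23 in the other lines (-0.76 ± 0.09, adjusted p = 0.000519). Between COLO741 and SW620, however, PTK2 did not pass, by line means of 11.47 and 11.62 (limma adjusted p = 0.287). The calls of CAV1 (-0.51 ± 0.13) and BCAR1 (-0.48 ± 0.11) were lost without the ABCB5-negative COLO741 array. CAV1 was higher in COLO741 than in HT29, by line means of 12.41 and 11.59 (adjusted p = 0.00529), and averaged 14.3 in HCT116. BCAR1 did not pass between COLO741 and HCT116 (10.19 and 9.86, adjusted p = 0.0868). Of 12 measured hemidesmosome and tetraspanin partners 5 were higher and 5 lower in COLO741, among them CD82 (1.17 ± 0.10), CD47 (0.99 ± 0.08) and CD81 (0.49 ± 0.07) as higher, and TSPAN8 (-3.05 ± 0.31), TSPAN1 (-2.80 ± 0.26) and CD9 (-1.28 ± 0.10) as lower. Single lines departed from these means, and CD82 was lower in COLO741 than in HT29 (-0.55, limma adjusted p = 0.00942). TSPAN8 averaged 5.0 in COLO741 and 4.90 in HCT116 (adjusted p = 0.848), with 12.61 in HT29. TSPAN1 did not pass between COLO741 and HCT116 either (7.48 and 8.24, adjusted p = 0.0927), with 13.54 in HT29.

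In the comparison of sorted populations 0 genes of these 7 lists passed, in a comparison that called 0% of all genes. The smallest unadjusted p of each list fell to ITGB5 (0.20 ± 0.08, SE), LAMB2 (0.44 ± 0.13), NPNT (-0.30 ± 0.07), COL6A2 (-0.11 ± 0.07), VCL (0.19 ± 0.10), NEDD9 (-0.34 ± 0.12) and the tetraspanin CD151 (0.11 ± 0.06), followed by ITGA2B, LAMB3, TNC, COL6A1, FERMT2, FYN and TSPAN1. All 14 had a limma adjusted p of 0.898. In COLO741 the fraction labelled ABCB5-positive held more EDIL3 (11.18 against 9.48), TNC (11.99 against 10.19) and SPP1 (13.88 against 12.70) beside its higher integrin levels, while FN1 measured 13.26 on the ABCB5-positive and 13.58 on the ABCB5-negative array. In SW620 FN1 was also lower in the fraction labelled ABCB5-positive, at 9.0 on the ABCB5-positive and 10.78 on the ABCB5-negative array. These 4 ligands were chosen after their values were seen, and with 1 array per fraction their differences have no test.

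Genes with the most similar line profile were found by the root mean square difference of the 4 line means, each gene centred on its own mean, among all genes tested. Closest to ITGB4 were C5orf63 (0.08 log2 units) and the kindlin gene FERMT1 (0.09), which is also in the list of actin linkers. ITGB6 lay closest to S100P (0.20) and CXCR4 (0.23), ITGA5 to GJC1 (0.28) and DRAM1 (0.30), and ITGA3 to CLMN (0.16) and SIAE (0.18). ITGA2 lay closest to RAB19 (0.01) and PBX3 (0.09), ITGAV to LITAF (0.04) and RALGPS2 (0.08), and ITGB3 to DOK5 (0.03) and TUB (0.04). The nearly level subunits ITGA6 (PCIF1 and SUSD6), ITGB1 (SAP18 and HSALR1) and the dim ITGA4 (HIPK1 and PRKCB) had such neighbours within 0.02. A profile is only 4 line means and 16910 genes were searched, so close neighbours can arise without any link. The distances carry no test. Among the 10 subunits themselves ITGB6 was nearest to ITGA2 (1.27) and ITGB4 to ITGA2 (1.31), both wider than these distances, and ITGA5 was nearest to ITGB3 (1.51).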

How the data were processed

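The 8 arrays each carry RNA of 1 sorted population of 1 line. The authors deposited a table of log2 expression with 33297 probe sets, made with Affymetrix Expression Console per the submitters' processing notes (version, summarisation and normalization: not given in the sources used here). Values between 2.99 and 15.24 show the log2 scale, and array medians were 8.03 to 8.10, so no further normalization was applied. Precision is limited by the number of arrays.

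Gene names come from GEO's platform annotation, possibly outdated, and were brought up to date by gene identifier (GRCh38.p14): 19460 named 1 gene, 1754 several and 12083 none. The brightest probe set on average stood for a gene, and 1507 genes with a mean below 5.73, the median of the olfactory receptor probe sets, were left out.

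limma 3.58.1 in R 4.3.3 fitted 16910 genes, with two-sided moderated tests and Benjamini-Hochberg adjustment per comparison at 0.05. Sorted populations were compared with line as a fixed blocking term, since by the labels both come from the same line; deviations of a line's 2 arrays from their group means correlated at 0.927 to 0.959. Lines were compared with the sorted population as covariate. Both fits left 3 residual degrees of freedom, with 3.44 added by moderation, and were tested on simulated data. The members, the gene lists and the tests were chosen with earlier results of these data known. Named are the 10 members, up to 3 genes per direction with the largest called COLO741 difference and the 2 of smallest unadjusted p between populations from each list, the other integrin subunits, and the 2 genes of most similar profile per member. Alternatives were quantile normalization, no filter and a strict filter at 7.50, the mean of all probe sets, a variance trend, other handling of line and population, and leaving out lines or arrays.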

Additional observations from a re-analysis of the deposited data

Results flagged for a closer look

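In 3 of 30 sets of 4 values (the levels of each subunit in each population, and the differences between populations), 1 line lay far from the rest by Dixon's criterion for 4 samples; chance gives about 1 in 20 such sets. For ITGB3 this line was COLO741 in both populations, at 8.28 among the ABCB5-positive arrays, where the next line measured 6.36, and at 7.69 among the ABCB5-negative arrays, where the next measured 6.41. For ITGA3 it was SW620 among the ABCB5-positive arrays, at 8.71, where the next line measured 11.83. The 4 values of a set are 4 different lines. The 30 sets are not independent, since both populations come from the same lines and the differences from the same values. Their count therefore cannot be judged by the 1 in 20.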

How the results depend on the processing

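Of 660 values of single subunits under the alternatives, 617 kept their direction and side of the threshold, 14 passed newly, 5 no longer passed and 24 changed sign; every sign change came from leaving out 1 line or array, and the cause was not tested. Without the block for cell line the comparison of sorted populations called 0 genes and 0 subunits (27 genes with an unadjusted limma p under 0.05). Treating cell line as a random block gave 0 and 0 too (775 genes). With line as a fixed block 744 genes had such a p, so the pairing changed the unadjusted p-values though no call. Leaving out 1 line, the differences between populations ranged from -0.15 to 0.07 for ITGA4, -0.01 to 0.23 for ITGA6, -0.02 to 0.16 for ITGB1 and -0.01 to 0.15 for ITGB4. Leaving out 1 array, COLO741 minus the other lines ranged from 0.00 to 0.50 for ITGA4, -0.52 to 0.14 for ITGA6 and -0.13 to 0.36 for ITGB1. Between neighbouring lines the ranges were, for ITGA3, -0.25 to 0.77 (HCT116 minus COLO741) and -0.23 to 0.37 (HT29 minus HCT116). For ITGA4 they were -0.02 to 0.49 (COLO741 minus SW620), -0.18 to 0.20 (SW620 minus HT29) and -0.08 to 0.13 (HT29 minus HCT116). For ITGA6 they were -0.04 to 0.62 (SW620 minus COLO741) and -0.13 to 0.53 (COLO741 minus HCT116), and for ITGAV -0.01 to 0.24 (COLO741 minus HT29). For ITGB1 they were -0.12 to 0.37 (HT29 minus COLO741) and -0.23 to 0.26 (COLO741 minus HCT116), and for ITGB3 -0.06 to 0.12 (HCT116 minus SW620) and -0.10 to 0.24 (HT29 minus HCT116). Counts of genes called ranged from 4308 to 7485 for SW620 minus HT29, 3809 to 7345 for SW620 minus HCT116 and 4063 to 7240 for HT29 minus HCT116, and counts of subunits from 5 to 9 for COLO741 minus HT29 and 4 to 7 for COLO741 minus HCT116. With 1 array left of a line, that array is assumed to vary like the others. ITGA4, and ITGB3, ITGB6 and ITGA5 in their dim lines, are limited by signal over background.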

Other observations

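Among protein-coding genes of the GRCh38.p14 annotation ITGB8 is the gene next to ABCB5 on chromosome 7. Both were brightest in COLO741, and there the fraction labelled ABCB5-positive measured 12.80 for ITGB8, against 12.14 in the fraction labelled ABCB5-negative, while ABCB5 measured 8.14 in the positive and 9.42 in the negative fraction. The neighbours thus differed in opposite directions between those 2 arrays, with no replicate and no test. This was chosen after the values were seen.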
